A study of Rattus norvegicus with 6 samples.

Results

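Peroxisome genes were followed as a group of 31 genes chosen by symbol: catalase, 12 peroxin (Pex) genes that build the organelle, and 18 genes for lipid handling or membrane proteins of the peroxisome. All 31 symbols were found among the 40456 genes of the table of counts, and 30 had enough reads to be tested. The libraries came from H9c2, an established rat cardiomyoblast line labelled wild type, held for 5 days in medium with 1% serum and 1 µM retinoic acid and then transfected with gapmers at 25 nM, 24 h before harvest. Gapmers are antisense oligonucleotides, here with locked nucleic acid bases, through which RNase H cuts a paired RNA. One group of 3 libraries received a negative control gapmer and another group of 3 received one that targets Tug1, a long non-coding RNA, so both groups carried transfection reagent and an oligonucleotide. A single Tug1 oligonucleotide in a single line was used, and the labels do not say whether the replicates were separate cultures, so p-values measure the spread between these libraries only. The 2 oligonucleotides, given in the labels and shown 5′ to 3′ because they define the comparison, were these.

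Tug1 gapmer: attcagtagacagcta

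Negative control gapmer: gctcccttcaatccaa

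Total counts ran from 12978548 to 13544337 per library. Tug1 had 713, 672 and 718 counts in the control libraries and 164, 152 and 165 after the Tug1 gapmer (log2 fold change -2.19, SE 0.0786, edgeR adjusted p 4.39e-16), so the values followed the labels. The labels call the cells cardiomyocytes, but only 3 of 12 cardiomyocyte markers (Tnnt2, Actn2 and Gata4) had a mean above 1 CPM (a library-scaled read level, computed with edgeR's TMM method), and Myh6, Ryr2 and Nppb were at or near 0. Of 12 skeletal muscle markers 9 were above 1 CPM, and their summed level was 954 to 972 CPM in controls and 1376 to 1459 CPM after the Tug1 gapmer, although Myh1 (-0.76) and Myod1 (-0.32) were called lower. Summed fibroblast markers (8 genes) were at 43814 to 45162 CPM and 41192 to 43997 CPM. Among them Dcn (0.57) and Col3a1 (0.47) were called higher, and Col1a1 (-0.23), Thy1 (-0.40) and Postn (-0.47) lower. Endothelial markers (5 genes) summed to under 5 CPM in every library. Leukocyte markers (5 genes, with Ptprc and Adgre1 at 0 in every library) summed to 77.8 to 81.4 CPM and 49.7 to 50.1 CPM, with Cd14 lower (-1.03), Cd68 higher (1.09) and Csf1r not called (0.21). The part of these marker differences in the peroxisome results was not tested. In bulk RNA fewer cells of a kind cannot be told apart from less RNA per cell.

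Peroxisomes are single-membrane organelles that shorten very long and branched fatty acids, begin the synthesis of ether lipids, and break down the hydrogen peroxide that their oxidases release. They take up folded enzymes from the cytosol through the peroxins: receptors bind a targeting signal on the enzyme, dock at the membrane, release the cargo, and are then ubiquitinated and pulled back out. In heart and muscle they work beside mitochondria, which finish the oxidation of the shortened chains. Several of their genes are classic targets of the nuclear receptor PPARα with its partner RXR.

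Catalase rose strongly while most of the other peroxisome genes moved little. After the Tug1 gapmer 13 of the 30 tested genes were higher, 3 were lower and 14 did not pass the quasi-likelihood test of edgeR (adjusted p under 0.05). The 16 called genes are 53.3% of those tested, where 61.7% of all 14216 tested genes were called. Of 30 other tested peroxisome genes, described below, 73.3% were called, so the lower share belongs to the chosen list. Whether these shares differ was not tested. Higher calls made up 43.3% of the tested peroxisome genes against 30.8% of all tested genes, and lower calls 10.0% against 30.9%. The median log2 fold change was 0.15, beside 0.00 for all tested genes, and the median absolute log2 fold change was 0.22 beside 0.34. A called change of at least 1 in absolute log2 was reached by catalase alone (3.33%, beside 9.80% of all tested genes). Control and Tug1 gapmer values did not overlap for 15 of the 30 (50.0%; 65.6% of all tested genes).

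**Figure D1:**
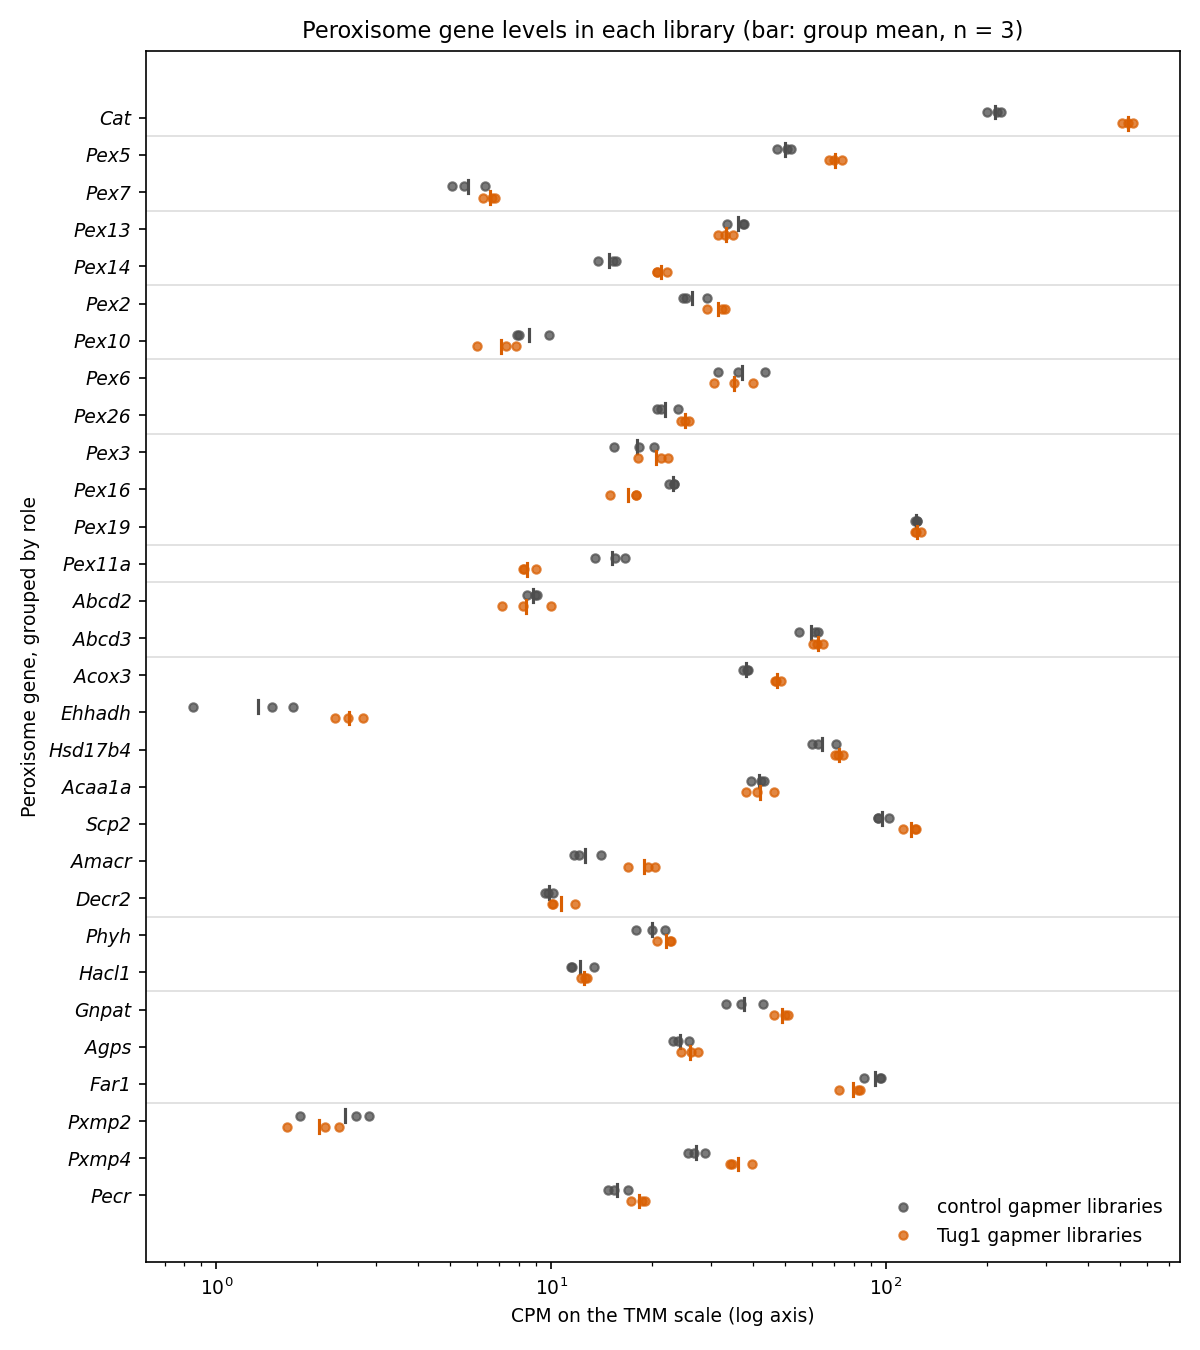
Level of each tested peroxisome gene in each library, in CPM on the TMM scale (log axis), with grey points for the 3 control gapmer libraries, orange points for the 3 Tug1 gapmer libraries and short bars for the group means; faint lines separate the roles. Catalase (Cat) shows the widest gap, from a control mean of 212 CPM to 527 CPM, while the points of genes such as Pex19, Acaa1a and Abcd3 lie on top of each other.

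Catalase splits hydrogen peroxide into water and oxygen and is the most familiar enzyme of the peroxisomal matrix. It had 2619, 2848 and 2787 counts in the control libraries and 7530, 7157 and 6713 after the Tug1 gapmer. Every Tug1 gapmer library lay far above every control library, and both groups were tight, with coefficients of variation of 4.76% and 3.70%. The group levels were 212 ± 10.1 CPM and 527 ± 19.5 CPM (SD, n = 3). The fitted change was 2.49-fold (log2 1.31, SE 0.0474, edgeR adjusted p 4.39e-16), and 97.9% of all tested genes had a lower value. Over 16 alternative analyses it stayed between 1.27 and 1.37 and was called each time. The share of reads from these 31 genes that belonged to catalase was 17.5% to 19.1% in control libraries and 33.3% to 34.5% after the Tug1 gapmer (reads not divided by gene length).

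Without catalase, the other 30 genes summed to 946 ± 10.5 CPM in controls and 1030 ± 11.4 CPM after the Tug1 gapmer (SD, n = 3), a ratio of 1.09. The difference of 84.0 CPM became 120 CPM when libraries were scaled by their totals instead of TMM. The 12 Pex genes together were at 380 ± 0.518 CPM and 400.4 ± 10.2 CPM, a ratio of 1.05. These sums add counts of genes of different length and describe reads, not molecules.

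The promoter of catalase is shown beside that of Pex11a, since these were the members with the highest and the lowest log2 fold change. Promoter windows came from RefSeq on the rat assembly GRCr8 (the assembly behind the deposited counts is not given in the sources used here) and were found for 29 of the 31 symbols. Each window held 250 bases before and 50 after the start of the gene, of which the first 250 are printed, 5′ to 3′ on the strand of the gene. Capitals mark a match to a direct repeat of the half-site AGGTCA with 1 base between the copies, the form bound by PPAR with RXR, read on both strands with at most 2 mismatches.

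Cat, chr3:110329527-110329776, minus strand: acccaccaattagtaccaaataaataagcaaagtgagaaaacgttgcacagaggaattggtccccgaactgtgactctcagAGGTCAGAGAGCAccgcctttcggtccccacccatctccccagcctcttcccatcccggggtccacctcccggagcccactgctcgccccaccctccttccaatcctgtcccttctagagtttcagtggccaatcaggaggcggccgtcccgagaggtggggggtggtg

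Pex11a, chr1:143096492-143096741, minus strand: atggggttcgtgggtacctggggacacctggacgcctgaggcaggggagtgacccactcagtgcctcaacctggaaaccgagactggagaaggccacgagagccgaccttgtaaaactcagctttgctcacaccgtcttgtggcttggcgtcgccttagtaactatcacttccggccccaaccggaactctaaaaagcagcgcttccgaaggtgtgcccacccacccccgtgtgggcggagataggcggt

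The match in the catalase window lay 169 to 157 bases before the start and had 2 mismatches. Among the 29 windows 3 held such a match (10.3%), beside 3.77% of all 33469 windows of the same length. The other matches were in Amacr and Slc27a2, each with 2 mismatches. The capitals below span the whole match, and the Slc27a2 match reads on the opposite strand.

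Amacr match: AGACCAAAGGTCA

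Slc27a2 match: TGACCTTTGAGAT

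Slc27a2 nevertheless had 0 counts in every library. The core of the antioxidant response element, TGACNNNGC, searched without mismatches on both strands, occurred in the windows of Pex7 and Pxmp2 (6.90% of 29; 12.1% of all windows). The FOXO motif TGTTTAC occurred in 0 of the 29 windows and in 3.78% of all windows. No member window held more than 1 of these motifs. The median share of G and C bases was 60.0% in the member windows and 51.7% in all windows. Its effect on these motif shares was not tested, and sites outside the windows were not searched. A match is a stretch of letters in a reference sequence, and binding was not measured.

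Of the 2 receptors that carry enzymes into the peroxisome, Pex5 was called. Pex5, the receptor for the common carboxy-terminal targeting signal, which catalase also uses in a variant form, had 614, 672 and 656 counts in controls and 933, 998 and 925 after the Tug1 gapmer. The groups did not overlap, and Pex5 rose 1.41-fold (log2 0.50, SE 0.0608, edgeR adjusted p 2.31e-07). Pex7, the receptor for the amino-terminal signal of a few enzymes, had 66, 82 and 71 counts and then 86, 92 and 88. Its CPM values overlapped, and its value of 0.22 on the log2 scale (SE 0.15, edgeR adjusted p 0.209) did not pass. Its 95% interval of -0.07 to 0.52 held the value of Pex5, and the receptors were not tested against each other.

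The receptors dock on Pex14 and Pex13. Pex14 had 204, 197 and 179 counts in controls and 285, 300 and 275 after the Tug1 gapmer, all above the control values. It rose by 0.51 on the log2 scale (SE 0.0918, edgeR adjusted p 4.64e-05). It spans more bases than 91.9% of tested genes, and with an offset for gene length its value was 0.26 (SE 0.0921, edgeR adjusted p 0.0178). Pex13 was at 36.2 ± 2.33 and 33.2 ± 1.71 CPM (SD, n = 3), with overlapping groups and an edgeR adjusted p of 0.152.

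The ring of ubiquitin ligases and the export motor that recycle the receptor showed small differences. Pex2, a ligase subunit, had 322, 327 and 378 counts and then 456, 437 and 386. Its groups overlapped on the CPM scale, and its rise of 0.26 (SE 0.0823, edgeR adjusted p 0.00959) was lost without control replicate 1 (0.21, adjusted p 0.0642). Pex10, another subunit of the ligase, had 128, 102 and 104 counts and then 101, 81 and 104. Its raw counts overlapped. On the CPM scale all Tug1 gapmer libraries were lower, but only just, with a highest value of 7.85 beside a lowest control value of 7.90. The log2 fold change of Pex10 was -0.28 (SE 0.144) with an edgeR adjusted p of 0.0939. Pex26, the membrane anchor of the export motor, rose by 0.19 (SE 0.0830) with an edgeR adjusted p of 0.0498, just inside the threshold, and was not called in 9 of 16 alternatives. Pex6, an ATPase of that motor, varied more within the groups than most members, with 472, 562 and 408 control counts and 423, 542 and 464 after the Tug1 gapmer, and its edgeR adjusted p was 0.550.

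Pex3, Pex16 and Pex19 place membrane proteins in the peroxisome, and Pex16 was the member of the 3 that changed. Pex16 had 304, 291 and 302 counts in controls and 247, 242 and 199 after the Tug1 gapmer, with no overlap. It fell by 0.44 on the log2 scale (SE 0.0906, edgeR adjusted p 0.000198). Pex19, the soluble chaperone for these proteins, was nearly constant at 1595, 1603 and 1600 counts and then 1692, 1721 and 1621 (log2 0.01, SE 0.0491, edgeR adjusted p 0.873). Pex3, the docking factor for Pex19, had 238, 199 and 263 counts and then 293, 245 and 295. Its value of 0.19 (SE 0.104, edgeR adjusted p 0.116) passed the threshold in 3 of 16 alternatives.

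Pex11a, whose protein elongates the membrane before peroxisomes divide, was the peroxisome gene with the lowest log2 fold change. It had 202, 174 and 215 counts in controls and 114, 111 and 119 after the Tug1 gapmer. The groups were far apart, and the level went from 15.2 ± 1.58 to 8.49 ± 0.434 CPM (SD, n = 3). The fit gave -0.84 on the log2 scale (SE 0.116, edgeR adjusted p 1.47e-06), and 7.30% of all tested genes had a lower value. Pex11g, a relative that was not among the 31, had 24, 22 and 24 counts and then 40, 35 and 45, and rose by 0.72 (SE 0.238, edgeR adjusted p 0.0121). The call for Pex11g was lost without knockdown replicate 3 (0.61, adjusted p 0.0564).

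**Figure D2:**
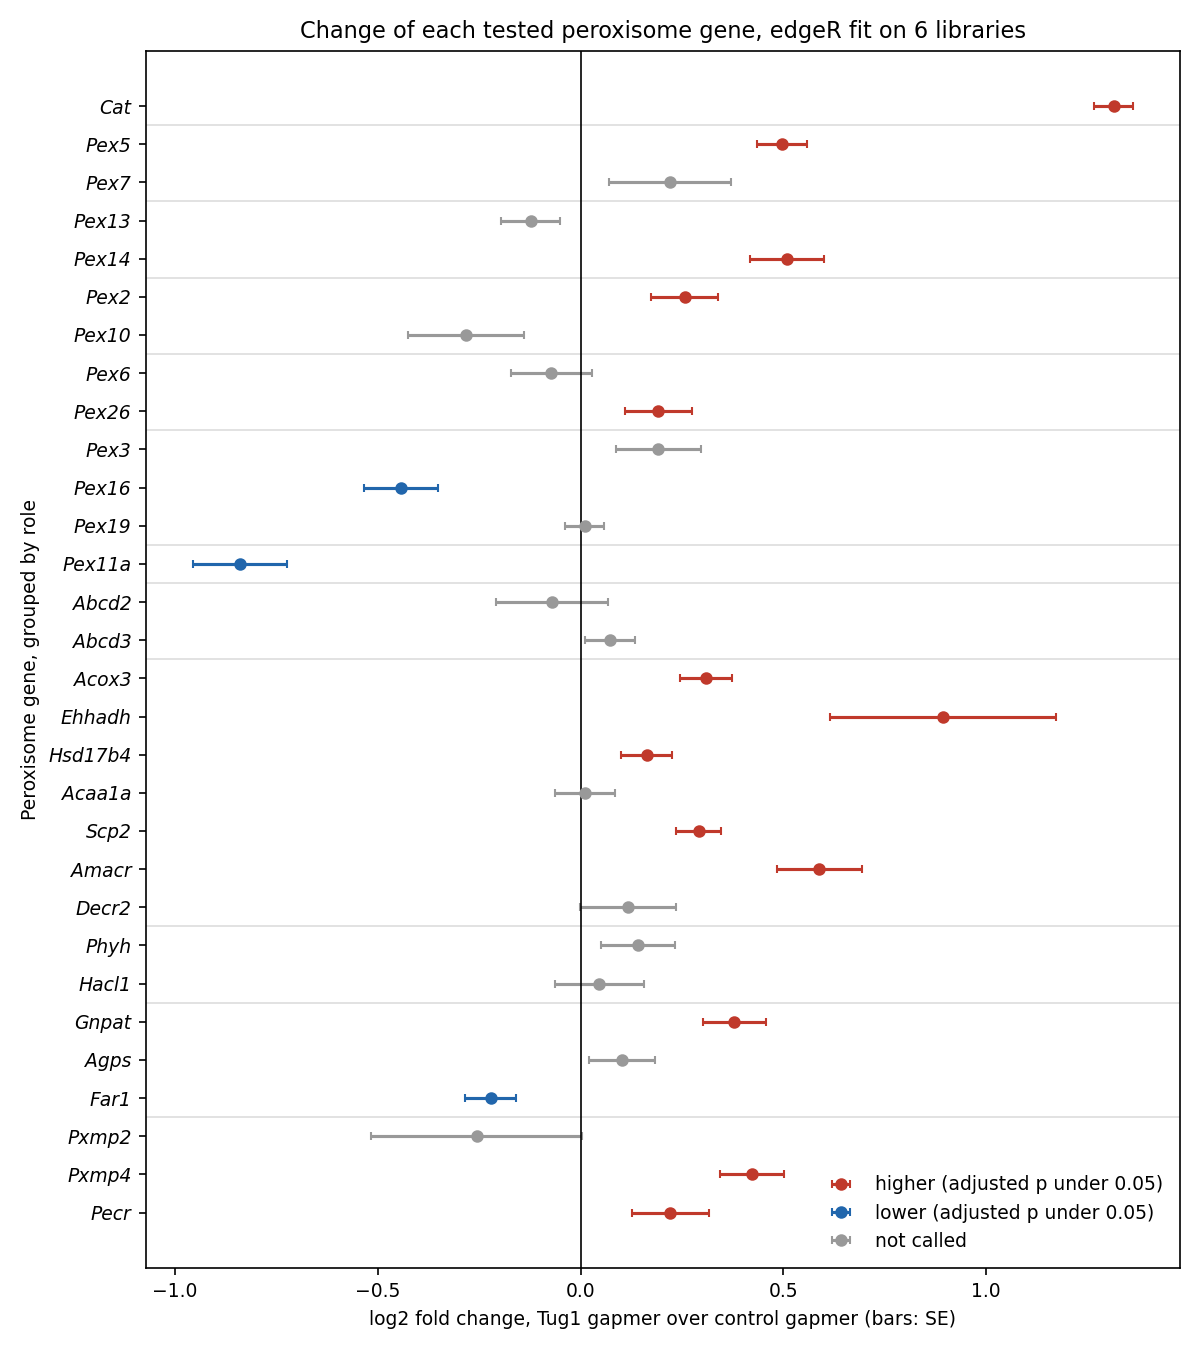
Log2 fold change of each tested peroxisome gene, Tug1 gapmer over control gapmer, with its SE, from the edgeR fit on 6 libraries; red marks genes called higher, blue genes called lower and grey genes not called. All 7 beta-oxidation genes, from Acox3 to Decr2, lie right of 0 (Hsd17b4 is at -0.01 with the length offset) and 5 of them are red, while Pex11a (-0.84), Pex16 (-0.44) and Far1 (-0.22) are the blue points.

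Entry of fatty acids into the peroxisome gave no called gene. Abcd3, a transporter of branched and very long acyl chains, had 798, 708 and 810 counts and then 860, 817 and 859 (log2 fold change 0.07, SE 0.0618, edgeR adjusted p 0.322). Abcd2, a transporter of very long acyl chains, had 117, 117 and 110 counts and then 98, 111 and 132 (edgeR adjusted p 0.676). Slc27a2, an acyl-CoA synthetase, was not detected, which at this depth allows a level of up to 0.217 to 0.232 CPM per library (3 counts, counting error only).

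Of the 7 peroxisomal beta-oxidation genes among the members, the role with the most genes, 5 were higher and 0 lower. That is 71.4% called, beside 61.7% of all tested genes (30.8% called higher). Ehhadh, the bifunctional enzyme of the straight-chain pathway, had 22, 11 and 19 counts in controls and 34, 37 and 30 after the Tug1 gapmer. All values were low but did not overlap, and the gene rose by 0.89 (SE 0.279, edgeR adjusted p 0.00800). Control replicate 2 weighed on this call, since without it the value was 0.65 with an adjusted p of 0.0610. Amacr, the racemase that prepares branched chains for oxidation, had 152, 156 and 183 counts and then 269, 276 and 225. It rose without overlap (log2 0.59, SE 0.106, edgeR adjusted p 4.31e-05).

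Acox3, an oxidase of branched acyl-CoA that produces hydrogen peroxide, had 502, 500 and 484 counts in controls and 669, 628 and 622 after the Tug1 gapmer. Both groups were narrow, and Acox3 rose by 0.31 (SE 0.0635, edgeR adjusted p 0.000204). Scp2, which codes for a thiolase and a lipid carrier, had 1235, 1321 and 1228 counts and then 1693, 1648 and 1487, and rose by 0.29 (SE 0.0549, edgeR adjusted p 7.79e-05). With the length offset the value for Scp2 was 0.15 (adjusted p 0.0283).

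Hsd17b4, the bifunctional enzyme of the branched-chain pathway, had overlapping CPM values and rose by only 0.16 (SE 0.0627, edgeR adjusted p 0.0283). Its call was lost in 7 of 16 alternatives, and with the length offset its value was -0.01. Acaa1a, the straight-chain thiolase, had 563, 546 and 511 counts and then 639, 557 and 507 (log2 fold change 0.01, SE 0.0735, edgeR adjusted p 0.901). It has a close relative, Acaa1b, and how shared reads were counted is not given in the sources used here. Decr2, a reductase for unsaturated chains, was at 9.84 ± 0.279 and 10.7 ± 0.996 CPM (SD, n = 3; edgeR adjusted p 0.406).

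The 2 alpha-oxidation genes, which remove a single carbon from branched acids such as phytanic acid, did not pass. Phyh, the hydroxylase, had 286, 259 and 233 counts and then 286, 307 and 301 (log2 fold change 0.14, SE 0.0907, edgeR adjusted p 0.182). Hacl1, the lyase, had 175, 149 and 149 counts and then 169, 171 and 169 (0.05, SE 0.109, edgeR adjusted p 0.728).

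The genes for ether lipid synthesis moved apart. Gnpat, which makes the first intermediate, had 435, 476 and 556 counts in controls and 704, 626 and 659 after the Tug1 gapmer. It rose by 0.38 without overlap (SE 0.0781, edgeR adjusted p 0.000208). Agps, the enzyme that forms the ether bond, had 311, 298 and 334 counts and then 337, 371 and 346, with an edgeR adjusted p of 0.288. Far1, which supplies the fatty alcohol, had 1261, 1109 and 1245 counts and then 1157, 978 and 1095. Its CPM values did not overlap, and it fell by 0.22 on the log2 scale (SE 0.0634, edgeR adjusted p 0.00423). The length offset moved Far1 further down, to -0.34 (adjusted p 3.68e-05).

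Of the remaining members, Pxmp4, a small peroxisomal membrane protein, rose. It had 334, 372 and 346 counts in controls and 479, 538 and 453 after the Tug1 gapmer, a rise of 0.42 on the log2 scale (SE 0.0794, edgeR adjusted p 7.46e-05). Pecr, an enoyl-CoA reductase, was at the edge of the threshold at 0.22 (SE 0.0949, edgeR adjusted p 0.0477) and was not called in 11 of 16 alternatives. Pxmp2, a membrane channel protein, had 34, 37 and 23 counts and then 32, 22 and 28, too few to tell a change (-0.26, SE 0.260, edgeR adjusted p 0.408). Across the 16 called members, 11 were called in every alternative tried, 8 of them higher and 3 lower.

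**Figure D3:**
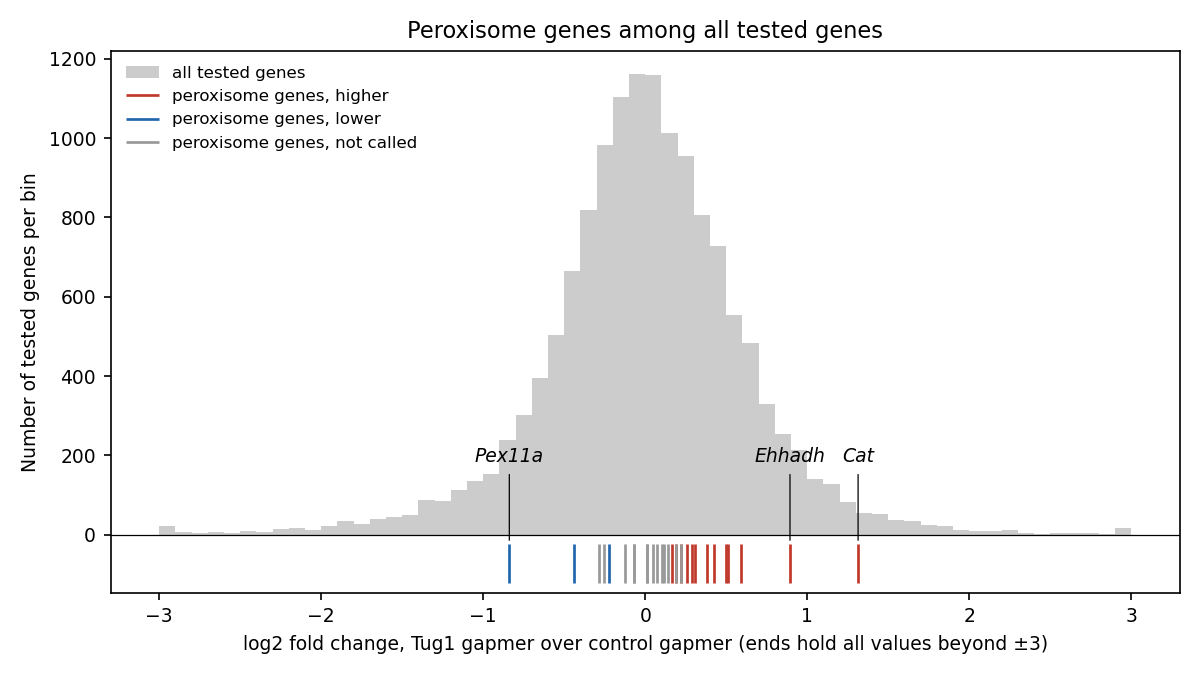
Number of tested genes per bin of log2 fold change (grey bars, Tug1 gapmer over control gapmer), with a tick under the axis for each of the 30 tested peroxisome genes, coloured by call. Most ticks lie within the bulk of the histogram; Cat (1.31) and Ehhadh (0.89) stand to the right and Pex11a (-0.84) to the left.

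Shorter genes tended to have lower values. Across the 30 members the Spearman correlation of log2 fold change with genomic span was 0.39, and across 12837 tested genes matched by symbol it was 0.27 (both across genes of the same 6 libraries, which are not independent replicates). The median span was 28640 bases for members called higher, 17297 for those not called and 7735 for those called lower. With the length offset, catalase was at 1.28 (edgeR adjusted p 8.61e-16), Pex11a at -0.73 (1.45e-05) and Pex16 at -0.34 (0.00204), so these calls did not depend on it. Of the 30 members 14 were called with the offset, the calls of Hsd17b4 and Pecr being lost.

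**Figure D4:**
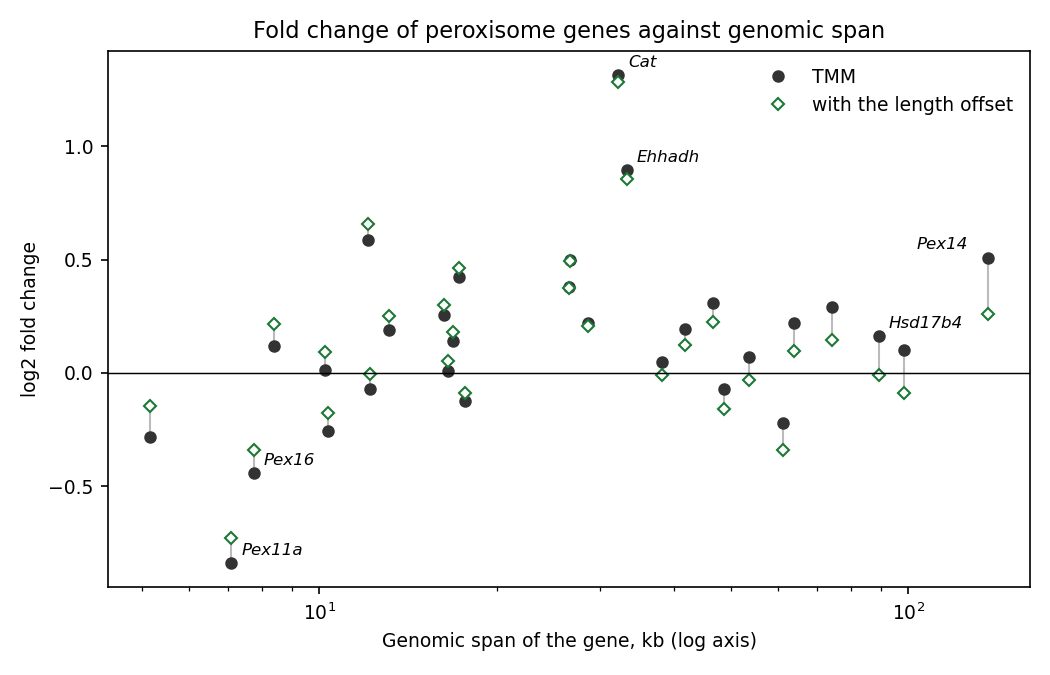
Log2 fold change of the 30 tested peroxisome genes against genomic span in kb (log axis), with filled circles for the TMM fit and open diamonds for the fit with the length offset, joined for each gene. Cat moves only from 1.31 to 1.28 and Pex11a from -0.84 to -0.73, while the longest genes, such as Pex14 and Hsd17b4, move down.

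Another 44 peroxisome genes outside the chosen 31 were listed for comparison. Of these, 30 were tested and 22 called (73.3%, beside 61.7% of all tested genes), 14 higher and 8 lower, with a median log2 fold change of 0.18. Rises of at least 0.5 on the log2 scale were found, beside Pex11g, for the peroxisomal protease Tysnd1 (0.78), the hydrolases Nudt7 (0.61) and Nudt12 (0.52), and Hsdl2 (0.62). Nudt19, the other Nudt gene listed, was called lower (-0.49). Mpv17l, at 7 to 11 and then 15 to 20 counts, was at 0.99, a call lost under the DESeq2 Wald test (adjusted p 0.0873) and without control replicate 1 (0.87, adjusted p 0.0780), control replicate 2 (0.88, 0.0764) or knockdown replicate 2 (0.87, 0.0790). The polyamine oxidase Paox fell by 0.63. Of the 11 tested lipid metabolism genes in this list 72.7% were called, 6 higher and 2 lower. The lower genes were Eci2 (-0.41) and Crot (-0.44). The peroxidase Prdx5, which also resides in mitochondria, was lower at -0.25, a call lost with the length offset (-0.08, edgeR adjusted p 0.0891). Uox, Hao2 and Agxt, matrix enzymes best known from liver, had 0 counts in every library, within the same floor as Slc27a2.

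The rise of catalase was set beside other enzymes that remove peroxides. All 9 tested genes of that list were called, 2 higher and 7 lower, where 61.7% of all tested genes were called and 30.9% were lower. With the length offset 7 were called, 2 higher and 5 lower. Prdx2 rose by 0.88 (from 3042, 3146 and 3137 counts to 6211, 6188 and 5540), and Prdx1 rose by 0.25. Gpx1, with 1745, 1538 and 1663 counts and then 1288, 1270 and 1086, fell by 0.50 on the log2 scale (SE 0.0601, edgeR adjusted p 1.74e-07), and by 0.26 with the length offset. Gpx8 (-0.54), Prdx3 (-0.49), Prdx4 (-0.46) and Gpx7 (-0.45) were lower as well. The smaller differences of Gpx4 (-0.13) and Prdx6 (-0.14) did not pass with library totals (-0.08 and -0.09), and Gpx4 was positive with the length offset (0.05). Peroxiredoxins and glutathione peroxidases have processed copies in the genome, so their counts carry that uncertainty.

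**Figure D5:**
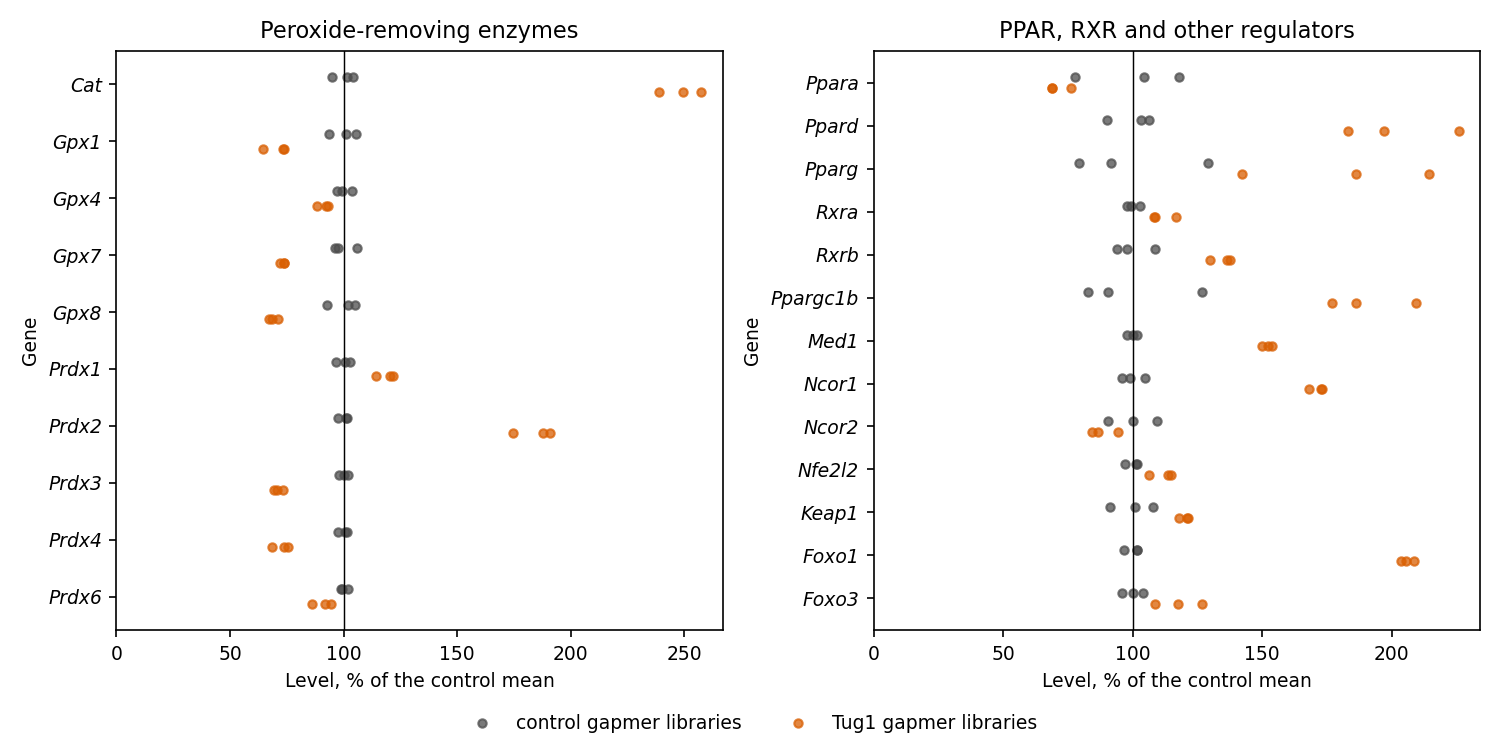
Level of each gene in each library as a percentage of its control mean, for catalase with other peroxide-removing enzymes (left) and for transcriptional regulators of peroxisome genes (right); grey points are the 3 control gapmer libraries and orange points the 3 Tug1 gapmer libraries. Cat, Prdx1 and Prdx2 lie right of their controls and the other 7 enzymes left (Gpx4 is at 0.05 with the length offset); Ppard, Pparg, Ppargc1b and Foxo1 lie far right and Ppara left.

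The regulators known for these genes were compared last. All 13 tested regulators were called, 11 higher and 2 lower, where 61.7% of all tested genes were called and 30.8% were higher. With the length offset 11 were called, 9 of them higher. Ppara, the receptor best known for inducing peroxisome genes, was low, with 81, 71 and 53 counts in controls and 50, 49 and 53 after the Tug1 gapmer. It was lower by -0.49 (SE 0.187, edgeR adjusted p 0.0271), a call that was lost without control replicate 1 (-0.35, adjusted p 0.152), control replicate 2 (-0.46, 0.0745), knockdown replicate 1 (-0.46, 0.0593) or knockdown replicate 2 (-0.46, 0.0593). The Ppara call was also lost under the DESeq2 Wald test (-0.49, adjusted p 0.0702).

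Ppard, the broadly expressed relative of Ppara, had 290, 296 and 252 counts and then 544, 658 and 562, and rose by 1.01 (SE 0.0867, edgeR adjusted p 7.93e-10). Pparg rose from 21, 24 and 34 counts to 60, 39 and 50 (0.85, SE 0.240, edgeR adjusted p 0.00377). Foxo1, a factor known to act on catalase, rose from 87, 86 and 82 counts to 184, 182 and 181 (1.04, SE 0.118, edgeR adjusted p 7.51e-08), beside a smaller rise of Nfe2l2 (0.16). Foxo3 was at 0.23, a call lost with the length offset (0.05, edgeR adjusted p 0.496). Among cofactors, Ppargc1b (0.93), Ncor1 (0.78) and Med1 (0.60) rose, while Ppargc1a had at most 5 counts in any library. Rxra rose by 0.15 (SE 0.0548, edgeR adjusted p 0.0189) and was at -0.02 with the length offset. Whether any of these had a part in the values of the peroxisome genes was not tested.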

How the data were processed

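Deposited values were raw counts of reads per gene in each library, as their whole numbers and unequal totals showed. FastQC 0.11.7, fastp 0.14.1 and STAR 2.5 are named in the submitters' processing notes. Counting tool, genome build, annotation, strand setting and treatment of shared reads are not given in the sources used here. Per the labels' protocols, libraries were stranded and poly-A selected from 500 ng RNA with an integrity number of at least 9.

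Of 40456 genes, 14397 had no counts, and 14216 passed edgeR's filter (minimum count 10, minimum total 15). Counts were scaled by TMM (factors 0.979 to 1.02) and tested with edgeR 4.0.16 in R 4.3.3 (quasi-likelihood test, two-sided, prior count 0.125, all 6 libraries, no block), with Benjamini-Hochberg adjustment over all tested genes. Genes were called at an adjusted p under 0.05. The SE is the absolute log2 fold change over the square root of F. At this depth 1 CPM was 12.9 to 13.8 counts.

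Alternatives were DESeq2 size factors, library totals, DESeq2's Wald test (1.42.0), limma-voom (limma 3.58.1), no filter beyond 1 count, a mean of at least 1 CPM, a threshold of 0.01, a block for the replicate number, leaving out each library, and an offset that removed a lowess trend (span 0.3) on genomic span from the RefSeq gene table of GRCr8, alone or with the block. Spans were found for 92.0% of tested genes.

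The members, lists, motifs and alternatives were chosen with earlier results of these data known. Lists covered other peroxisome genes, division and turnover, transcriptional regulators, PPAR targets outside the peroxisome, other peroxide-removing enzymes and cell type markers. All members were named, and in other lists the called genes with an absolute log2 change of at least 0.5 (up to 8) plus fixed genes, some of which are not reported here; Gpx4, Gpx7, Prdx1, Prdx3, Prdx4, Prdx6, Foxo3 and others below that size were named after their values were seen. The planned search for peroxisomal targeting signals was not run, as protein sequences were not used here. The main fit was also tried on simulated counts of 14018 genes. It called 29.9% of genes given an absolute log2 change of 0.25, 62.7% at 0.5 and 90.6% at 1, with 12 false calls. Only 67, 67 and 64 genes were changed at these sizes, far fewer than were called here. The shares in the real data may therefore differ, and changes of the smaller sizes can be missed.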

Additional observations from a re-analysis of the deposited data

How the results depend on the processing

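Ranges are over 16 alternative analyses. The log2 fold change of Tug1 ran from -2.22 to -2.08, with -2.22 to -2.15 over the fits on 5 libraries. The count of all changed genes ran from 7353 to 8987 (8128 to 8410 on 5 libraries). Changed peroxisome members numbered 12 to 17 (12 to 15 with a library left out, 12 without control replicate 2). Counts ran from 19 to 25 for other peroxisome genes, 10 to 13 for regulators, 13 to 14 for PPAR targets, 7 to 9 for peroxide-removing enzymes and 5 to 6 for division and turnover genes. The summed level of the members without catalase differed by 84.0 CPM, by 120 CPM with library totals, and by 78.8 to 90.6 CPM on 5 libraries.

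Libraries sharing a replicate number had correlations of -0.0053, 0.0298 and 0.0270 between their deviations from the group means. Libraries with different numbers had -0.0323 to 0.0059. Correlations this small, with 3 libraries per group, cannot tell whether the numbers mark pairs. With the number as a replicate block, 15 members were called, Pecr being lost (adjusted p 0.0536), and catalase was at 1.31.

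Among 480 values of single members, 435 kept direction and call, 27 lost the call, 3 gained it and 15 changed sign. Sign changes touched Hsd17b4 (-0.0090 with the length offset and -0.0077 with offset and block) and 7 members that were not called: Abcd3 (-0.0300 and -0.0290), Agps (-0.0872 and -0.0875), Hacl1 (-0.0091 and -0.0079), Pex19 (-0.00079 without a filter), and, with a library left out, Pex19 (-0.0065 to 0.0223), Abcd2 (-0.20 to 0.0418), Acaa1a (-0.0640 to 0.0753) and Pex6 (-0.17 to 0.0568). Among 431 values of the 27 genes outside the members that the naming rule chose, 2 changed sign, those of Rxra with the length offset (-0.0154, and -0.0159 with the block). Of genes named later, Gpx4 (0.05) and Nbr1 (-0.0096) changed sign with the length offset and Dnm1l (0.01) with library totals. What lay behind the sign changes was not tested, for gene length or for any other setting. The length offset only removed a trend on genomic span fitted to these same counts. Depth limits genes near 1 CPM such as Ehhadh and Mpv17l.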

Other observations

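Genes known as PPAR targets outside the peroxisome moved in both directions. Of 22 listed, 16 were tested and 13 called (81.3%, where 61.7% of all tested genes were called), 8 higher and 5 lower. Mitochondrial fatty acid genes were among those that rose: Hadha, a subunit of the trifunctional protein, from 214 ± 3.80 to 309 ± 8.55 CPM (SD, n = 3; log2 fold change 0.53), and Slc25a20, the carnitine carrier, from 49.9 ± 3.09 to 71.8 ± 3.01 CPM (0.53). Pdk4 (0.78) and the low-level Ucp3 (1.15) rose as well. Fabp3 (-0.98) and Angptl4 (-0.63), which code for a fatty acid binding protein and a secreted lipase inhibitor, were lower. The list was chosen with earlier results known, and direction was not tested for the list.

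Genes for peroxisome division and removal gave 6 called of 8 tested (75.0%, beside 61.7% of all tested genes), 4 higher and 2 lower (3 and 3 with the length offset). Sqstm1, a receptor for selective autophagy, rose from 883 ± 38.2 to 1378 ± 87.7 CPM (SD, n = 3; log2 fold change 0.64, SE 0.0476, edgeR adjusted p 7.25e-11), while the related receptor Nbr1 was at 301 ± 6.69 and 302.1 ± 9.27 CPM (edgeR adjusted p 0.937). Dnm1l, the fission motor shared with mitochondria, was at -0.04 (edgeR adjusted p 0.486), but at -0.14 with the length offset (0.0157) and at 0.01 with library totals. Mff, a receptor for that motor, was lower at -0.19, beside the larger difference of Pex11a.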
